A study of Mus musculus with 6 samples.

Results

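The miRNA miR-126 is described here through the 4 rows that carry its name in a table of 1390 mouse miRNAs. They are mmu-miR-126a-3p and mmu-miR-126a-5p, the strands of the Mir126a hairpin, and mmu-miR-126b-3p and mmu-miR-126b-5p, the names given to the opposite genomic strand. The prefix, for the mouse, is left out from here on. The rows were chosen by name, and all 4 had enough counts to be tested, as did 519 miRNAs in all. Small RNA was sequenced from whole thymus of C57BL mice aged 5 weeks. Irradiated mice (n = 3) were exposed to X-rays (6 Gy, 800 cGy/min, source distance 40 cm), with the thymus taken 24 h afterwards, and control mice (n = 3) were not irradiated. No transgene or deletion was involved, and the labels name the animals as the replicates.

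A miRNA hairpin is diced into a short duplex, of which usually 1 strand is kept in an Argonaute protein and the other is degraded. Bases near the 5′ end of the kept strand, the seed, pair with target messenger RNAs. MiR-126 is made mainly by endothelial cells, from an intron of Egfl7, a gene for a secreted vessel protein. Its 3p strand is known for sustaining vascular growth factor signalling through repression of Spred1 and Pik3r2, and its 5p strand for repressing Dlk1. Some haematopoietic cells also make it.

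The mature sequences are shown because they separate rows that measure their own RNA from rows that can take up reads of another. The capitals mark the seed, bases 2 to 8 from the 5′ end. Of the 4 sequences, 3 were matched in RefSeq (GRCm38.p6), and that of miR-126a-5p comes from the deposited table.
miR-126a-3p: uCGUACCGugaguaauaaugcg
miR-126a-5p: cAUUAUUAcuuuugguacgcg
miR-126b-3p: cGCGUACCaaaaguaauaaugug
miR-126b-5p: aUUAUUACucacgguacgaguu
The 4 seeds all differ, and 0 other miRNAs of the table share any of them. On the GRCm38 build, miR-126a-5p lies at chr2:26591365-26591385 and miR-126a-3p at chr2:26591402-26591423, both on the plus strand. On the minus strand, miR-126b-3p lies at chr2:26591363-26591385 and miR-126b-5p at chr2:26591399-26591420. The hairpins are printed next with their mature strands in capitals.
Mir126a: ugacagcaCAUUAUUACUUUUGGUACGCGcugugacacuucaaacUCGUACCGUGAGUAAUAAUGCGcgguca
Mir126b: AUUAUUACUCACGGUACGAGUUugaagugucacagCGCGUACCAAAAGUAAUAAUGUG
The 58 bases of Mir126b (chr2:26591363-26591420) are the exact reverse complement of the inner part of the 73 bases of Mir126a (chr2:26591357-26591429). In the GENCODE M21 annotation, Mir126a lies in an intron of 8 Egfl7 transcripts, in an exon of 1 Egfl7 transcript, and in an intron of 1 transcript of Gm20532, all on the plus strand.

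**Figure D1:**
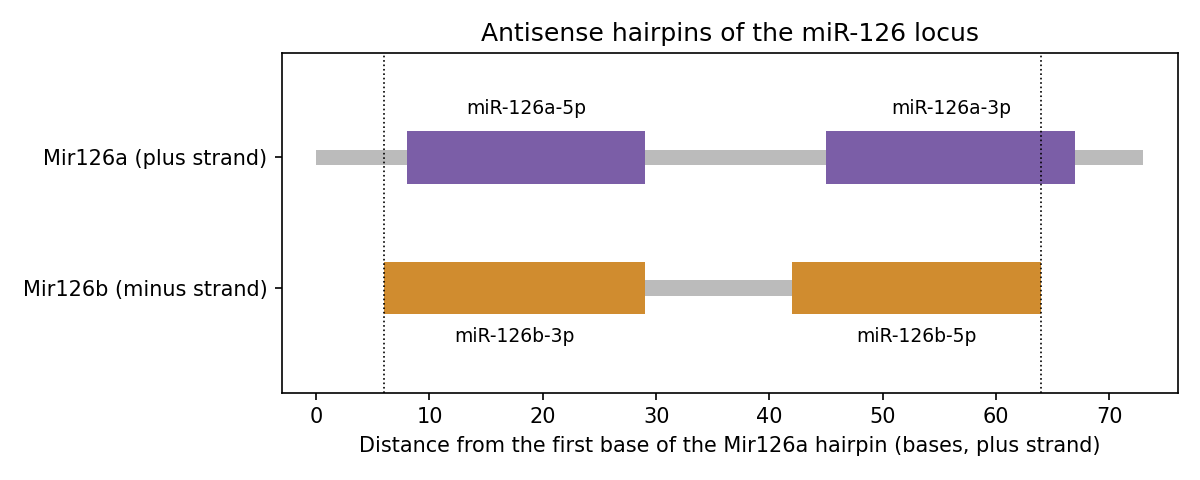
Map of the hairpins and mature strands, with distance in bases from the 5′ end of Mir126a on the x axis, plus-strand features above and minus-strand features beneath, and dotted lines at the ends of Mir126b. miR-126b-3p covers all 21 bases of miR-126a-5p, whereas miR-126b-5p shares 19 bases with miR-126a-3p, which reaches 3 bases past the end of Mir126b.

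The row miR-126b-3p did not measure a separate molecule that could be told from miR-126a-5p. It held 6235, 7263 and 5920 counts in irradiated libraries 1 to 3, against 5077, 7742 and 5982 in control libraries 1 to 3. The row miR-126a-5p held 6235, 7264 and 5920 counts in the irradiated libraries, against 5078, 7742 and 5983 in the control libraries. The largest difference between both rows was 1 count in any library, although their sequences read in opposite directions and share no run of more than 4 bases in the same sense. The sources used here do not say whether the authors' counting kept the strand of a read. The miR-126b-5p row held 0.191%, 0.267% and 0.222% of the miR-126a-3p counts in the irradiated libraries, against 0.388%, 0.261% and 0.211% in the control libraries. Its reads therefore cannot be told apart from a small share of reads of the miR-126a-3p arm, and both miR-126b rows are reported as uncertain.

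The 6 libraries differed far beyond miR-126. Library totals were 7730641 to 9287017 counts, and 318 of the 519 tested miRNAs (61.3%) passed an adjusted p of 0.05 in edgeR's quasi-likelihood test with Benjamini-Hochberg adjustment, 144 higher (27.7%) and 174 lower (33.5%) after irradiation. With upper-quartile factors, the split was 206 higher and 139 lower. The labelled tissue was checked against 6 thymocyte miRNAs, which summed to 2872 to 5067 CPM in irradiated libraries and to 89337 to 156932 CPM in control libraries (CPM are counts scaled to a fixed library total with trimmed-mean factors). Irradiated libraries 2 and 3 stood apart from irradiated library 1 in 3 skeletal and cardiac muscle miRNAs, which summed to 602, 20116 and 13395 CPM in irradiated libraries 1 to 3, against 202, 271 and 480 CPM in control libraries 1 to 3. Erythroid miRNAs summed to 608, 5101 and 2026 CPM in the irradiated libraries, against 517, 483 and 731 CPM in the control libraries. The part of these shifts in the results below was not tested. The changes of the miR-126 rows, their ratio and their sum are also given with library 1 as the single irradiated library. That alternative was chosen after seeing the data, and its spread comes from the controls alone. Its p-values therefore hold no spread between irradiated animals.

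miR-126a-3p, the abundant strand, was about 4-fold higher in irradiated thymus. Its level was 14864, 23675 and 17565 CPM in the 3 irradiated libraries, against 5032, 4340 and 4472 CPM in the 3 control libraries. Every irradiated library lay above every control library, and irradiated library 2 was the highest. The means were 18701 ± 4514 CPM in irradiated thymus and 4615 ± 367 CPM in control thymus (SD, n = 3 each). On the log2 scale the difference was 2.02 ± 0.26 (SE), and edgeR's quasi-likelihood test gave an adjusted p of 1.5e-04. Among 519 tested miRNAs it ranked 145th by absolute change, so large changes were common in this tissue. Of the tested miRNAs, 32% had groups that did not overlap and were higher after irradiation, and 36.6% had such groups and were lower. In whole tissue, fewer cells of a type and less RNA per cell cannot be told apart, and neither can more endothelial cells and more miR-126 per cell. Levels are relative to the other counted reads of a library, so a loss of other RNA cannot be told apart from these either.

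As a share of all counted reads, miR-126a-3p took 1.31%, 2.32% and 1.78% in irradiated libraries 1 to 3, against 0.414%, 0.605% and 0.442% in control libraries 1 to 3. By abundance it ranked 9th, 6th and 7th in the irradiated libraries, against 27th, 26th and 30th in the control libraries. These shares and ranks use no scaling factor, and in both the groups did not overlap. In the authors' deposited table its log2 fold change is 2.06, with an adjusted p of 1.43e-10. With library 1 as the single irradiated library, the log2 fold change was 1.88.

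**Figure D2:**
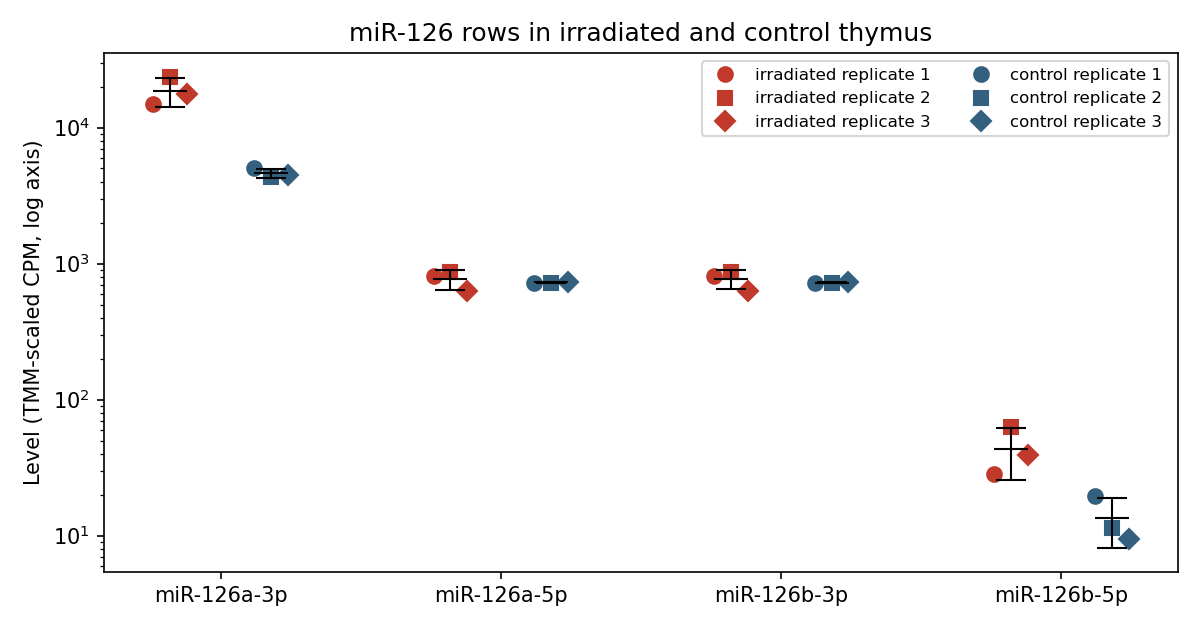
Level of each of the 4 rows in every library, in CPM on a log axis, irradiated libraries to the left of control libraries, with lines at the group mean and at 1 SD on either side. The groups are separate for miR-126a-3p and miR-126b-5p and overlap for miR-126a-5p and miR-126b-3p.

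miR-126a-5p, cut from the other arm of the same hairpin, did not pass the test. Its level was 814, 867 and 629 CPM in the irradiated libraries, against 724, 718 and 734 CPM in the control libraries. Irradiated libraries 1 and 2 lay above all controls and irradiated library 3 lay below all of them. The means were 769.8 ± 125 CPM in irradiated thymus and 726 ± 7.88 CPM in control thymus (SD, n = 3 each). The log2 fold change was 0.085 ± 0.23 (SE; adjusted p of 0.768 in edgeR's test), and it was negative, at -0.073, when scaled by library totals alone and at -0.17 when miRNAs under a mean of 10 CPM were left out. By abundance this strand ranked 60th, 63rd and 65th in the irradiated libraries, against 72nd, 71st and 71st in the control libraries. With library 1 as the single irradiated library, its log2 fold change was 0.36. The authors' deposited table gives it a log2 fold change of 0.15 and an adjusted p of 0.729.

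miR-126b-3p repeated those values, at 769.7 ± 125 CPM in irradiated thymus and 725.5 ± 7.83 CPM in control thymus (SD, n = 3 each), and adds no evidence of its own. Its log2 fold change of 0.085 ± 0.23 (SE) took the same negative values of -0.073 and -0.17 under those alternatives, and was 0.36 with library 1 as the single irradiated library. miR-126b-5p, the scarce row antisense to the 3p strand, had 28.4, 63.3 and 39.1 CPM in the irradiated libraries, against 19.5, 11.3 and 9.45 CPM in the control libraries. The groups did not overlap, and counts behind these levels were 218, 530 and 368 in the irradiated libraries, against 137, 122 and 77 in the control libraries. The means were 43.6 ± 17.9 CPM in irradiated thymus and 13.4 ± 5.37 CPM in control thymus (SD, n = 3 each). It was 3.25-fold higher, or 1.70 ± 0.39 (SE) on the log2 scale (edgeR adjusted p of 0.0045), and 1.28 with library 1 as the single irradiated library. In the authors' deposited table its log2 fold change is 1.72. Thus 2 of the 4 rows were higher, against 27.7% of all tested miRNAs. Those rows lie on the same arm and the remaining rows repeat each other. The 4 rows are therefore not separate, and the shares cannot be compared.

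The strands of Mir126a therefore stood in a different proportion after irradiation. The 5p strand made up 5.19%, 3.53% and 3.45% of the reads of both strands in irradiated libraries 1 to 3, against 12.6%, 14.2% and 14.1% in control libraries 1 to 3. The Wilson 95% intervals, which cover counting error only, ran from 3.37% to 5.32% over the irradiated libraries and from 12.3% to 14.5% over the control libraries. The share averaged 4.06% ± 0.979 in irradiated thymus and 13.6% ± 0.906 in control thymus (SD, n = 3 each). Irradiated library 1 had the highest 5p share of the irradiated libraries and the lowest muscle and erythroid sums. Its muscle sum of 602 CPM was above all controls (202 to 480 CPM). The part of these miRNAs in the 5p share was not tested.

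Expressed as reads of 3p per read of 5p, the ratio was 18.3, 27.3 and 27.9 in the irradiated libraries, against 6.95, 6.04 and 6.09 in the control libraries. Both strands come from the same library, so this ratio depends neither on depth nor on scaling factors. It counts reads and not molecules, since adapter ligation can favour a sequence. Whether that bias was the same in both groups was not tested. The mean ratio was 24.5 ± 5.41 in irradiated thymus and 6.36 ± 0.509 in control thymus (SD, n = 3 each).

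The log2 ratio averaged 4.59 in irradiated thymus and 2.67 in control thymus. Tested with limma over all 149 hairpin names that had both strands counted, the change was 1.92 ± 0.25 (SE; 95% interval 1.35 to 2.5), a 3.79-fold shift towards 3p, with a Benjamini-Hochberg adjusted p of 0.013. An exact two-sided permutation test of the 3 against 3 ratios gave p = 0.1, the smallest it allows. The limma call was lost without control library 3, where the change was 1.89 with an adjusted p of 0.071 and 0 pairs passed. With library 1 as the single irradiated library the change was smaller, at 1.53.

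Few of the 149 pairs passed the test for a changed strand ratio. With the same limma test, 18 names (12.1%) shifted, 8 (5.37%) towards 3p and 10 (6.71%) towards 5p. The 10 include miR-126b, at -1.61 (limma adjusted p of 0.042). Its rows cannot be told from those of miR-126a, so the locus is counted in both directions. The groups did not overlap for 34.2% of pairs, 14.1% with a shift towards 3p and 20.1% with a shift towards 5p. The count of calls depended on the libraries: without irradiated library 1 it was 19 towards 3p and 14 towards 5p, and without any other single library 0 to 2 in each direction. The median change over all pairs was 0.00 on the log2 scale, with quartiles of -0.54 and 0.58. miR-126a ranked 4th by absolute change. Larger shifts towards 3p were seen for 2 names, miR-503 at 2.31 and miR-15b at 2.18, and the largest of all was that of miR-26b towards 5p at -3.16. miR-142a, a haematopoietic miRNA, was the other pair whose strands were both at least as deep as miR-126a-5p, and its ratio moved the opposite way, by -1.44 ± 0.28 (SE; limma adjusted p of 0.027).

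**Figure D3:**
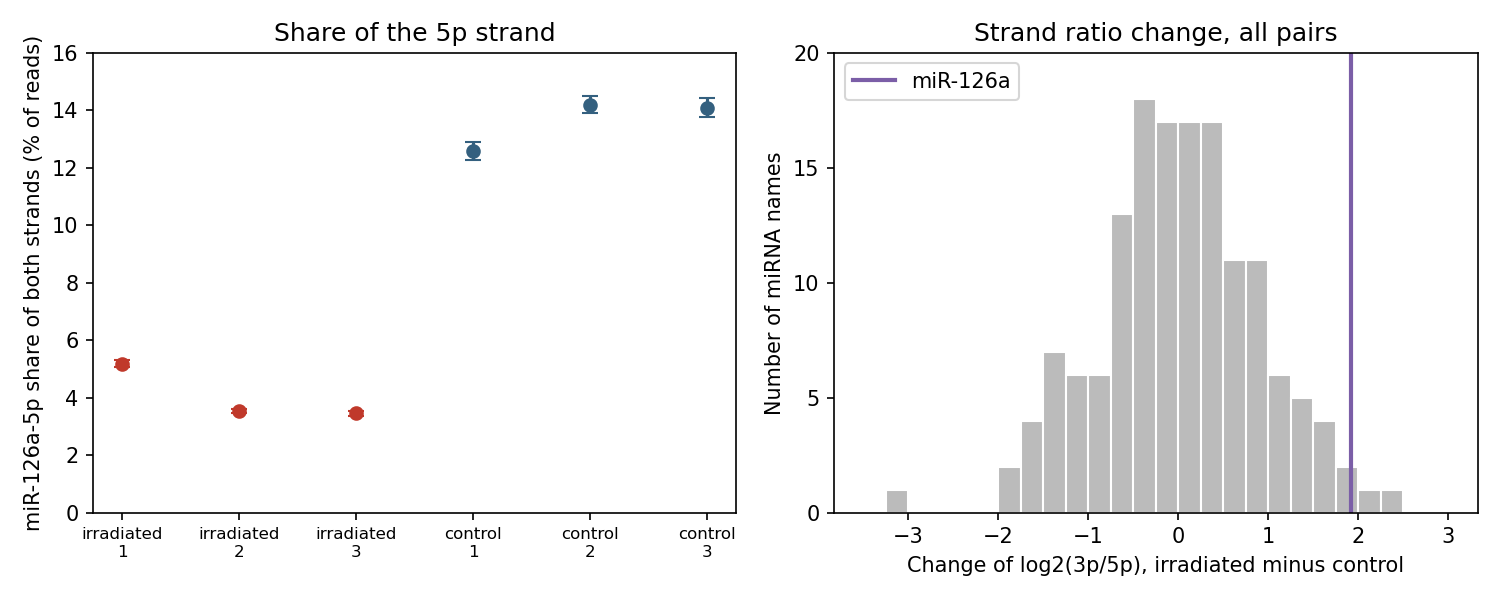
Left, share of miR-126a reads from the 5p strand in each library, in percent, with Wilson 95% intervals. Right, histogram of the change in log2(3p/5p), irradiated minus control, over 149 strand pairs, with a line at the miR-126a value of 1.92, which only 2 pairs exceed on the 3p side.

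Summed over both strands, reads of the Mir126a hairpin were higher in irradiated thymus, and nearly all of the difference lay in 3p. The sum was 15678, 24542 and 18194 CPM in the irradiated libraries, against 5756, 5059 and 5206 CPM in the control libraries, with no overlap. The means were 19471 ± 4568 CPM in irradiated thymus and 5340 ± 367.5 CPM in control thymus (SD, n = 3 each), a 3.65-fold difference, with an exact two-sided permutation p of 0.1, the smallest 3 against 3 libraries allow. With trimmed-mean factors, the 3p strand made up 99.7% of the difference between the means. The 5p share of reads averaged only 13.6% in control thymus. Equal fold changes of both strands would therefore also place most of the difference in 3p. With library 1 as the single irradiated library, the log2 ratio of the sums was 1.75, against 1.87 with all 3.

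The change of miR-126a was then set against that of each other miRNA within the same library, with limma on the log2 difference of the pair and Benjamini-Hochberg adjustment over the 518 other miRNAs. miR-126a-3p rose by more than 446 of them (86.1%) and by less than 4 (0.772%). All these differences share the miR-126a-3p value of each library, so they are not independent of each other. Without pooling the spread across miRNAs these counts were 419 and 1. Without irradiated library 1 miR-126a-3p rose by less than 8, without irradiated library 2 by less than 2, and without control library 1 by less than 1.

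The change of miR-126a-5p was above that of 176 of the others (34%) and under that of 113 (21.8%). Without pooling these counts were 144 and 63. The second count was 73 without irradiated library 3, 63, 70 and 68 without control libraries 1, 2 and 3, and 161 without irradiated library 1.

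Other miRNAs known in endothelium or in vessel growth moved in both directions. In edgeR's test 10 of the 20 tested rose, 2 fell and 8 missed the threshold, with a median log2 fold change of 0.83 against 0.014 over all tested miRNAs, of which 27.7% rose and 33.5% fell. The same shares stand behind the counts of every list that follows. Summed, the 20 stood at 60330, 74513 and 64792 CPM in the irradiated libraries, against 61949, 41261 and 51788 CPM in the control libraries. The groups overlapped in this sum. miR-10a-5p, which restrains inflammatory signalling in endothelium, was 5129 ± 2368 CPM in irradiated thymus and 1230 ± 84.1 CPM in control thymus (SD, n = 3 each), a log2 fold change of 2.06. Compared within libraries, the change of miR-126a-3p minus that of miR-10a-5p was 0.04 on the log2 scale (95% interval -0.63 to 0.70), which did not pass the test. In edgeR's fit the order was the opposite, 2.02 for miR-126a-3p and 2.06 for miR-10a-5p, so these data give the pair no order. miR-92a-3p, an angiogenesis-restraining member of the miR-17-92 cluster that thymocytes also express, had the opposite sign at -3.74. The other one that fell was miR-503-5p, at -1.04.

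Against these 20 endothelial and angiogenic miRNAs, miR-126a-3p rose by more than 15 and by less than 0. Without pooling the spread across miRNAs the count was again 15, but the call against miR-217-5p was lost and one against miR-10b-5p was gained. The count was 18, 14 and 13 without irradiated libraries 1, 2 and 3, and 15, 14 and 12 without control libraries 1, 2 and 3. On the log2 scale miR-126a-3p rose by 1.93 more than miR-27a-3p and by 1.56 more than miR-24-3p. Both are abundant miRNAs of the clusters that also hold miR-23. With pooling, the 5 against which no difference passed were miR-10a-5p, miR-10b-5p, miR-100-5p, miR-218-5p and miR-222-3p. The change of miR-126a-5p was above that of 3 of the 20 and under that of 9, with 1 and 9 when the spread was not pooled. Without irradiated library 1 the list gave 4 lower instead of 2, without control library 2 or 3 it gave 1 lower, and miR-126a-5p was then above 1 of the 20.

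Most stromal miRNAs of smooth muscle and fibroblasts were higher too. Of 9 tested, 7 were higher (27.7% of all tested miRNAs were) and 2 did not pass, with a median log2 fold change of 1.5. The 2 were miR-143-3p, at 0.73, and miR-145a-5p, at 0.61. Each is the more abundant strand of its hairpin, and the scarcer strands, miR-143-5p and miR-145a-3p, are among the 7. The 9 summed to 275570, 300070 and 187347 CPM in the irradiated libraries, against 233326, 85154 and 139106 CPM in the control libraries. This sum is mostly miR-143-3p, and the groups overlapped. miR-126a-3p rose by more than 2 of the 9, miR-143-3p and miR-145a-5p, and by less than 1. For the other 6 it was 0.26 to 0.65 above them on the log2 scale without passing, with intervals that reached from -0.39 to 1.40. The exception was miR-199a-3p, a fibroblast-rich miRNA, at 767, 1582 and 1301 CPM in the irradiated libraries, against 146, 136 and 153 CPM in the control libraries. Its log2 fold change was 3.07, and the change of miR-126a-3p differed from it by -1.0 on that scale (95% interval of the difference -1.64 to -0.35, limma adjusted p of 0.0067). Without pooling the spread across miRNAs, the call against miR-143-3p was lost. With library 1 as the single irradiated library the differences were 0.72 for miR-143-3p and -0.70 for miR-199a-3p. They were 0.79 for miR-143-5p and 1.11 for miR-199b-5p. Without control library 1 miR-126a-3p rose by more than 4 of the 9. The change of miR-126a-5p was under that of 7 of the 9, or 5 without pooling.

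Thymocyte miRNAs moved the other way. All 6 were lower, with a median log2 fold change of -5.07, and both strands of miR-126a changed by more than each of them in the positive direction. For miR-181a-5p, which tunes T cell receptor signalling, the log2 fold change was -4.83, and miR-126a-3p exceeded it by 6.82. For the pan-haematopoietic miR-142a strands, both were lower with a median of -2.12, and both strands of miR-126a again exceeded them. With library 1 as the single irradiated library, the median of these miR-142a strands was -1.71.

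Markers of other cells that can carry miR-126 or enter a dissected thymus were set beside it. For platelet and myeloid cells, which can hold miR-126, the sum of miR-223-3p and miR-223-5p was 44.2, 105 and 158 CPM in the irradiated libraries, against 30.7, 50.0 and 57.2 CPM in the control libraries. Of the 2, miR-223-5p passed as higher and miR-223-3p did not. In irradiated library 1 miR-223-3p was at 12.0 CPM, under all controls (21.3 to 41.7 CPM), and without that library it passed as higher. miR-126a-3p rose by more than miR-223-3p, a call lost without pooling, and its difference from miR-223-5p did not pass. The change of miR-126a-5p was under that of miR-223-5p, also lost without pooling. Their part in the miR-126 result was not tested.

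Of 4 erythroid miRNAs 3 were higher, with a median of 3.01 on the log2 scale, and miR-126a-3p rose by more than miR-486a-5p alone. The number of erythroid miRNAs that were higher was 0 without any 1 of the control libraries and with library totals. It was 2 without irradiated library 2, and 4 without irradiated library 1 or with median-of-ratios or upper-quartile factors. With library 1 as the single irradiated library the median was 0.13. In that setting the change of miR-126a-3p was above that of each erythroid miRNA tested. The smallest difference was 1.47 on the log2 scale, for miR-451a, and that for miR-144-3p was 1.79. With all libraries these differences were -0.12 and -0.49, and neither passed. Without irradiated library 1, the change of miR-126a-3p was smaller than that of 3 of the 4. miR-451a, made in red cell precursors, was at 335, 4095 and 1411 CPM in the irradiated libraries, against 234, 268 and 374 CPM in the control libraries. Of 5 epithelial miRNAs 4 were higher, with a median of 1.36, and miR-126a-3p rose by more than 1 of them, miR-141-3p. Without irradiated library 1, miR-126a-3p rose by more than 3 of the 5. Without irradiated library 2, it rose by more than 1 and by less than 1. The change of miR-126a-5p was under that of 0 erythroid miRNAs (4 without irradiated library 1) and 4 epithelial miRNAs.

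All 3 muscle miRNAs were higher, with a median of 4.85, or 1.27 with library 1 as the single irradiated library. miR-1a-3p, the main miRNA of striated muscle, was at 527, 19377 and 13225 CPM in the irradiated libraries, against 191, 258 and 459 CPM in the control libraries. The change of miR-126a-3p was smaller than that of 2 of the 3 and that of miR-126a-5p smaller than all 3, but 0 of these calls were left without pooling the spread. Of the 3 muscle miRNAs, 1 passed as higher without control library 3 or with library totals, and 2 without irradiated library 1, irradiated library 2 or control library 2. Without irradiated library 2 or control library 1, the change of miR-126a-3p was smaller than that of 0 of them. That of miR-126a-5p was smaller than 0 without control library 1 and than 1 without irradiated library 2, irradiated library 3 or control library 2. The change of miR-126a-3p minus that of miR-1a-3p was -2.18 on the log2 scale, -3.67 without irradiated library 1, and 0.80 with library 1 as the single irradiated library. In that last setting the difference was 0.83 for miR-133a-3p and -0.99 for miR-206-3p. With all libraries these were -1.55 and -1.06, and that for miR-206-3p did not pass. Irradiated library 2 had the highest level of the irradiated libraries both for miR-126a-3p, at 23675 CPM, and for the summed muscle miRNAs, at 20116 CPM, and irradiated library 1 had the lowest for both.

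**Figure D4:**
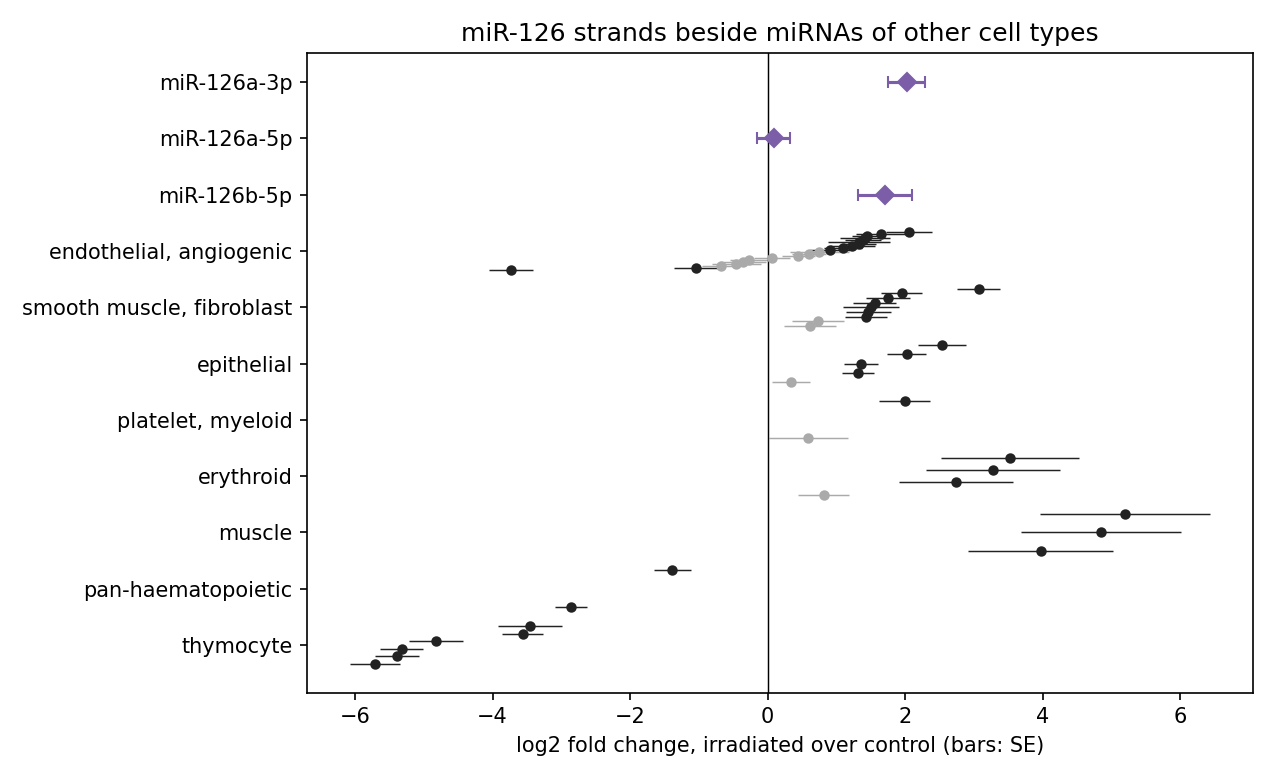
Log2 fold change, irradiated over control, of miR-126a-3p, miR-126a-5p and miR-126b-5p (diamonds) above the tested miRNAs of 8 lists, each point a miRNA, black where it passed edgeR's test and grey where it did not, with bars of 1 SE. All 6 thymocyte miRNAs lie left of both miR-126a strands, and miR-126a-3p at 2.02 lies near the upper end of the endothelial and angiogenic list, whose median is 0.83.

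The miRNAs whose levels followed each strand most closely over the 6 libraries were found by the root mean square difference of log2 levels, each centred on its own mean, among 310 candidates with a mean of at least 10 CPM. Nearest to miR-126a-3p was miR-99a-5p, at 0.066 on that scale, with 6639, 10870 and 8142 CPM in the irradiated libraries, against 2466, 1904 and 2228 CPM in the control libraries. Its order of irradiated libraries was that of miR-126a-3p, with library 2 highest, and its log2 fold change was 1.96. The next were miR-214-5p at 0.213 and miR-10a-5p at 0.225.

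Nearest to miR-126a-5p, apart from the miR-126b-3p row that repeats it, were miR-148a-5p at 0.106 and miR-1839-3p at 0.151. miR-148a-5p had 144, 136 and 127 CPM in the irradiated libraries, against 129, 131 and 128 CPM in the control libraries. The partner strands of miR-126a were far apart by this measure, at 0.984, and miR-126a-5p ranked 139th among the candidates nearest to miR-126a-3p. With 6 libraries in 2 groups, these distances mostly describe the size of the difference between groups.

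**Figure D5:**
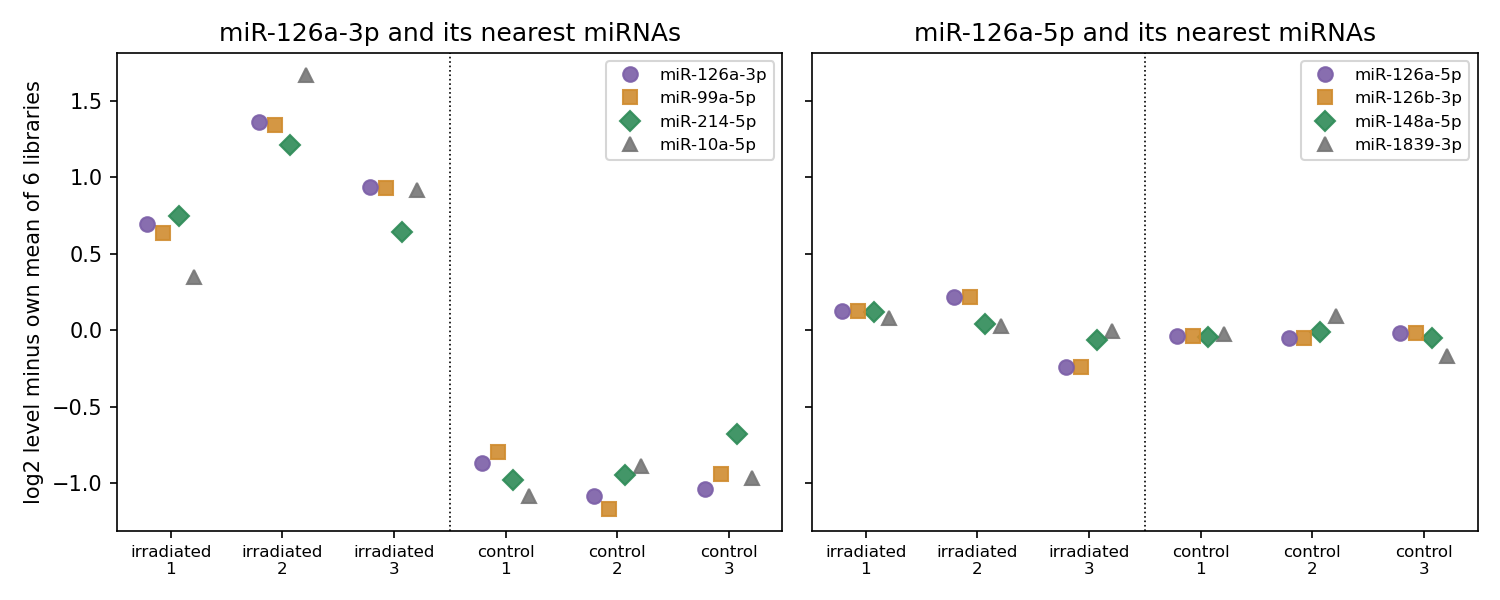
Centred log2 level in each library of miR-126a-3p (left) and miR-126a-5p (right) with their 3 nearest miRNAs, irradiated libraries to the left of control libraries. miR-99a-5p lies next to miR-126a-3p in all 6 libraries, and miR-126b-3p overlies miR-126a-5p.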

How the data were processed

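Small-RNA libraries from 3 irradiated and 3 control thymuses were analysed. The labels name TRIzol extraction and NEBNext kits and call the molecule polyA RNA. The deposited table holds whole-number read counts per mature miRNA, per the file headers. It also gives the authors' log2 fold change and the authors' adjusted and unadjusted p-value for irradiated over control, and DESeq2 1.10.1 is named in the submitters' processing notes. The sources used here do not name the aligner, build or strand setting of the counting. Another 6 columns of counts match no label and were left out.

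Counts were tested in R 4.3.3 with edgeR 4.0.16 (trimmed-mean factors, filterByExpr, robust quasi-likelihood test) over all 519 miRNAs kept, with Benjamini-Hochberg adjustment and a threshold of 0.05. Levels are scaled CPM. Factors ranged from 0.823 to 1.39. A count of 0 allows up to 3 counts, which is 0.323 to 0.388 CPM. Strand ratios, log2 with 0.5 added to both counts, were tested with limma 3.58.1 over pairs with a mean of at least 10 counts per strand. Differences between miRNAs within a library used log2 CPM with a prior count of 2 and limma. Both procedures were tested on simulated data. In the test between miRNAs, all differences share 1 miRNA, and pooling the spread was slightly liberal in the simulated data. Those data gave every miRNA the same setting of spread. They therefore do not cover miRNAs of unequal spread, such as the muscle miRNAs, and unpooled counts are given too. Alternatives were other scalings and filters, DESeq2 1.42.0, limma-voom, a replicate block, and leaving out libraries or the most abundant miRNA.

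The members, lists and tests were chosen with earlier results of these data known. Named miRNAs are the 4 members, members of the 8 lists, and the 3 nearest to each miR-126a strand. The strand pairs named beside miR-126a were chosen after their values were seen. Hairpins were placed on GRCm38 with GENCODE M21.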

Additional observations from a re-analysis of the deposited data

How the results depend on the processing

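miR-126a-3p stayed higher and passed in all 17 alternatives (log2 1.76 to 2.43, adjusted p of 1.4e-10 to 0.0019 by edgeR, DESeq2 or limma-voom), and miR-126b-5p in all 16 run for it (1.28 to 2.09). miR-126a-5p passed in 0 of 17 (-0.17 to 0.52): both it and miR-126b-3p were negative with library totals (-0.073) and with a mean of at least 10 CPM (-0.17). Scaling moved the median of all tested miRNAs, which was 0.014 with trimmed-mean factors, to 0.12 (median-of-ratios), -0.13 (library totals) and 0.44 (upper quartile); relative to that shift the miR-126a strands moved little, and the strand ratio uses no factor.

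The strand ratio fell to 1.53 (limma adjusted p of 0.061) with irradiated library 1 as the single irradiated library, whose spread is assumed to be that of the controls. With upper-quartile factors the summed strands differed by 2.28 on the log2 scale. With a mean of at least 10 CPM, 210 miRNAs passed and miR-126a-3p differed from 241, since fewer miRNAs were tested. Leaving out each library in turn gave 266 to 374 miRNAs past the threshold, 1.97 to 2.13 for miR-126a-3p, 0.01 to 0.28 for miR-126a-5p and for miR-126b-3p, 1.53 to 2.09 for miR-126b-5p, 1.82 to 2.12 for the strand ratio (adjusted p up to 0.071), 1.82 to 1.97 for the summed strands, and 446 to 500 and 199 to 336 miRNAs that differed from miR-126a-3p and miR-126a-5p.

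Same-numbered libraries deviated together with correlations of 0.18, 0.0017 and 0.30, and irradiated library 2 correlated best with control library 3, so the numbers were not taken as pairs. With the number as a replicate block, 298 miRNAs passed, miR-126a-3p stood at 1.99, miR-126a-5p at 0.07, miR-126b-5p at 1.70 (adjusted p of 0.021 in edgeR), and the strand ratio at 1.92 (limma adjusted p of 4.7e-04), with 13 pairs shifted towards 3p and 16 towards 5p against 8 and 10 without it. Depth limits miR-126b-5p most, at 77 to 137 counts in control libraries.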

Other observations

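Row pairs on opposite strands of the same place, like the miR-126 pair, recur in the table. Where the more abundant row lay wholly inside the hairpin of the other name, 13 of 21 pairs had counts within 5% of each other, with a median of 98.9%. Where it reached outside that hairpin, as miR-126a-3p does, 0 of 6 pairs were within 5%, and the median was 7.25%. Pairs overlapped by at least 15 bases and had at least 100 counts in the larger row. miR-126b-5p, at 0.244% of miR-126a-3p, is one of these 6.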
